A study of Mus musculus with 6 samples.

Results

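Interleukins are secreted cytokines by which leukocytes and stromal cells signal to each other, and interleukin receptors are the surface chains that bind them. Here they were described in mesenteric lymph nodes through 65 of the 12254 mouse genes with a symbol, taken as all mapped symbols that begin with Il and a digit except 1 gene not reported here. These genes had 74 of the 41006 probes on the array. Ligands made up 32 genes with 39 probes, and receptor chains made up 29 genes with 30 probes. The receptor chains include decoys, among them Il22ra2, which is not a surface chain. The other 4 genes, with 5 probes, encode the antagonists Il1rn and Il1f5, the IL-18 binding protein Il18bp and the enzyme Il4i1. Accessions were matched to symbols through a RefSeq table, so receptor chains without a matched probe were not analysed here.

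The study compared 2 mouse strains with TNF, a proinflammatory cytokine, knocked out. One, labelled B-TNF KO and called B_TNF_KO here, is described by the series title as lacking TNF in B cells. The other, labelled TB-TNF KO double and called TB_TNF_KO, is described as lacking it in T and B cells. Each of the 6 arrays carried RNA from the pooled nodes of 3 adult naive mice, labelled with Cy3, beside Cy5-labelled RNA of a common reference of 11 mouse cell lines. The labels give male mice for 5 pools and female mice for replicate 2 of TB_TNF_KO. The B-cell deletion is common to both groups and no wild-type node was analysed here, so the values compare these strains with each other. The labels name neither the Cre drivers nor the residual TNF-producing cells. There was no dye swap, and the headers put the feature extraction of the groups on different days, so day and group cannot be told apart.

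Lymph node stroma supplies some of these signals to lymphocytes. IL-7, from fibroblastic reticular and lymphatic endothelial cells, maintains naive T cells through Il7r and the common gamma chain. IL-15 sustains memory CD8 T cells and NK cells. IL-18 and IL-1β are made as precursors, are processed by caspase-1 and signal through MyD88.

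Each value below is a log2 ratio of the node over the reference for 1 probe, and a difference is TB_TNF_KO minus B_TNF_KO with the SE of the limma model. The probes are printed first because each value is the reading of 1 probe of 60 bases. The first 30 bases are given as the scanner files write them, with G and C in capitals, since the share of probes that read lower in TB_TNF_KO moved with GC content across the whole array. The first 4 probes belong to the ligands with the clearest separation, followed by the receptor of IL-7 and a receptor whose difference lay in the reference channel.
Il18: aGGatGaaaatGGGGataaatCtGtaatGt
Il7: aaaCaCtatGttGtGGaGGCCaaatttCtG
Il15: GaaatCttGGaaatGaaGaGaGGaaaaGaG
Il1b: GGaaaaGCGGtttGtCttCaaCaaGataGa
Il7r: GaaaaCCaaaaCtCttGGtCaGaGaCaata
Il13ra2: taCatCttCttGaaaatCaGtGtttGtCCt
The 60-base probes of Il18, Il7, Il15 and Il1b held 35%, 36.7%, 36.7% and 43.3% GC. The next 4 are the paired probes of Il1f6 and Il4, whose differences had opposite signs within each gene. That of Il1f6 probe 2 was near 0, at -0.01.
Il1f6 probe 1: tGGGGaaGGGaaCataatGGaaatGtaCaa
Il1f6 probe 2: atGCaGaaCatCttaCCatGttttCatCCa
Il4 probe 1: CCtGCtCttCtttCtCGaatGtaCCaGGaG
Il4 probe 2: GtCCaaGtCCaCatCaCtGaaaGaCttCCt

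The targeted transcript went with the labels. One Tnf probe read 0.19, 0.36 and 0.49 in B_TNF_KO replicates 1 to 3 and -0.66, -0.63 and -0.84 on the TB_TNF_KO arrays. Its difference was -1.09 ± 0.10 (adjusted p = 0.054), and that of a further Tnf probe was -0.26. Whether these probes lie inside the deleted part is not known. The arrays had median net sample intensities of 159 to 203 for B_TNF_KO and of 144 to 166 for TB_TNF_KO, and 95.9% to 99.6% of spots per array passed the software's background test in that channel. TB_TNF_KO replicates 1 and 2 stood closest of all pairs of arrays. The SD of their sample log differences was 0.951 times that of their reference log differences, and 9 probes differed by more than 2-fold, against ratios of 1.05 to 1.59 and 28 to 207 probes for the other 14 pairs. They were therefore counted as 1 sample, which gave n = 3 against 2. The library labelled TB_TNF_KO replicate 1 is male by its label, but its Y-linked Eif2s3y ratio was -2.81, next to -2.84 in replicate 2 and 0.59 to 1.83 on the other arrays.

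No interleukin or receptor probe passed the test at an adjusted p of 0.05 in either direction. Over all 40584 probes tested, 6 were called lower in TB_TNF_KO (0.0148%) and 0 higher (0%), and no probe was called lower without B_TNF_KO replicate 2 or without TB_TNF_KO replicate 3. At an unadjusted p of 0.05, limma placed 11 of 74 member probes lower, where the background was 11.1%, and 3 higher, where it was 5.04%. The median member difference was -0.02, against -0.01 for all probes, and 48 of 74 lay within 0.1 of 0. By role, the median was 0.01 for the ligands and -0.05 for the receptors. The difference was below 0 for 17 of 39 ligand and 23 of 30 receptor probes, against 54.9% of all probes.

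For 15 of the 74 member probes the TB_TNF_KO arrays all read lower than the B_TNF_KO arrays, with a background of 17%, and for 5 they all read higher, with a background of 10.6%. Of the 15, 4 were among the 39 ligand probes (10.3%) and 9 among the 30 receptor probes (30%), and Il18bp and Il4i1 completed them. The members' shares, 20.3% and 6.76%, lay near the background. The plot of differences shows all 74 in order.

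**Figure D1:**
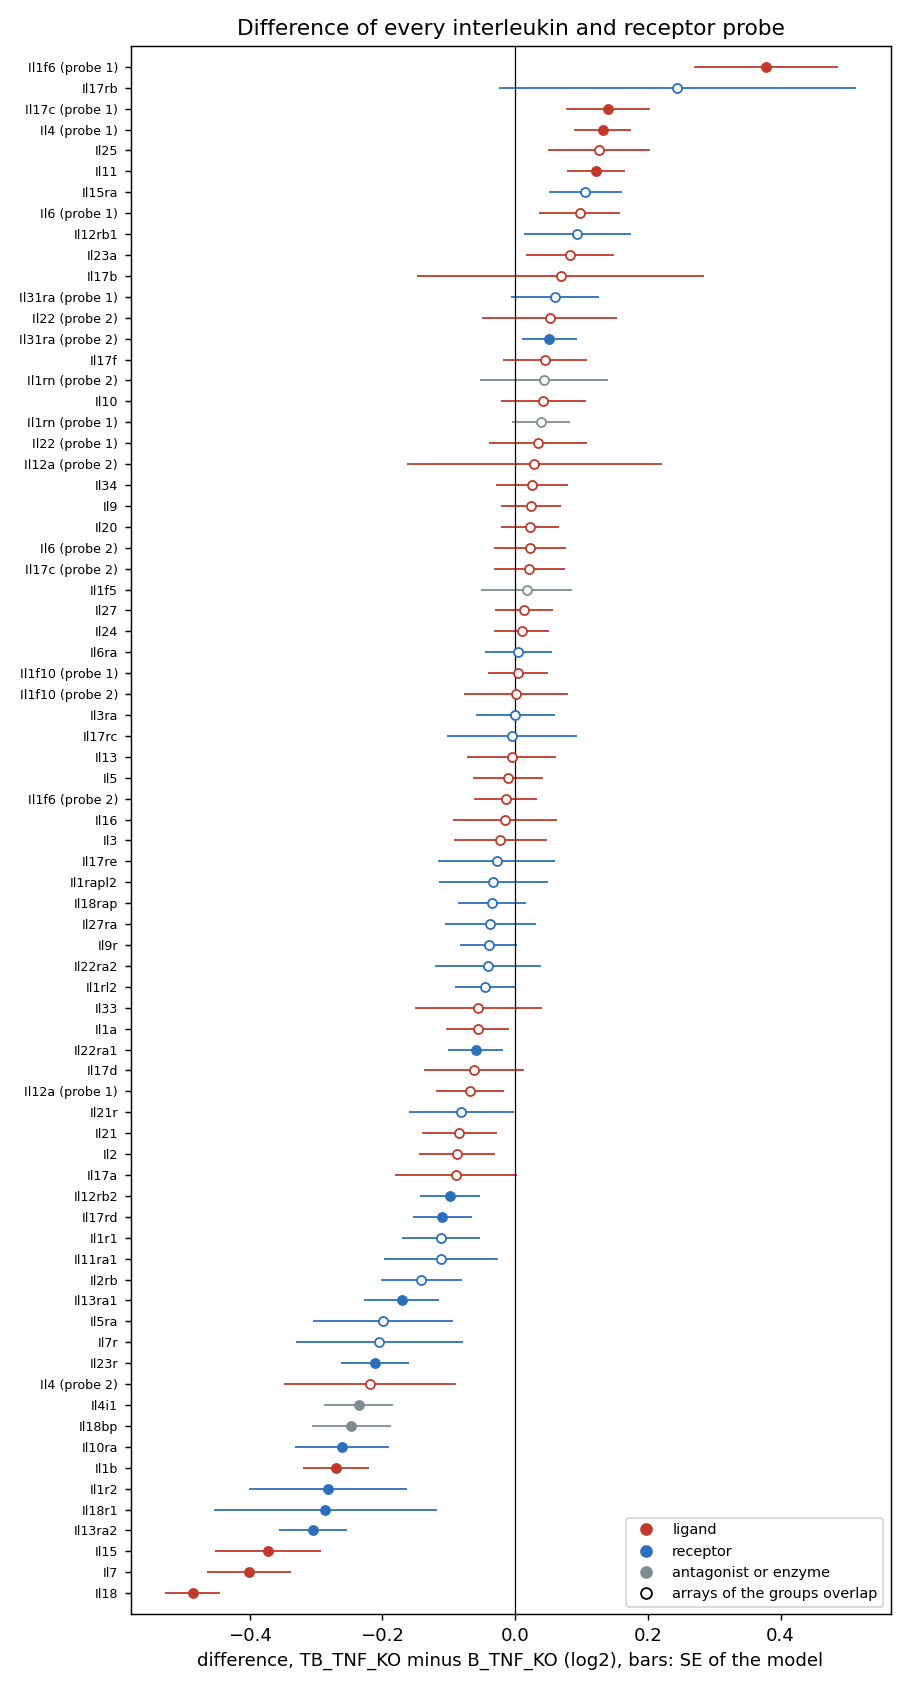
Difference between TB_TNF_KO and B_TNF_KO for each of the 74 probes (log2, horizontal axis), with bars for the SE of the model, coloured by role; filled points are probes whose arrays did not overlap between the groups. Il18, Il7 and Il15 had the lowest values, at -0.49, -0.40 and -0.37, and Il1f6 probe 1 the highest, at 0.38.

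Among the 39 ligand probes, 4 were lower on every TB_TNF_KO array (10.3%), a smaller share than the 17% of all probes. Il18, the interferon-γ-inducing member of the IL-1 family, stood at 1.58, 1.57 and 1.59 in B_TNF_KO replicates 1 to 3 and at 1.18, 1.04 and 1.08 in TB_TNF_KO. The B_TNF_KO arrays were nearly level with each other and the groups were well apart. The difference was -0.49 ± 0.04 (SE, 95% interval -0.59 to -0.39), which is 1.40-fold lower, with an adjusted p of 0.054. In the sample channel alone it was 10.27, 10.21 and 10.19 against 9.89, 9.74 and 9.79 as log2 intensity. That difference, -0.42, was the only one of the 74 called lower in the sample channel (adjusted p = 0.048), where 0.744% of all probes were. The reference channel of Il18 differed by -0.12, and it too was lower on every TB_TNF_KO array.

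Il7, the survival factor of naive T cells, stood at 1.01, 0.90 and 1.03 in B_TNF_KO and at 0.52, 0.52 and 0.64 in TB_TNF_KO. No array of one group reached the other. The difference was -0.40 ± 0.06 (95% interval -0.56 to -0.25), or 1.32-fold lower, with an adjusted p of 0.061. The sample channel differed by -0.29, and the reference channel by 0.06, with its arrays overlapping.

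Il15 stood at 1.42, 1.22 and 1.38 in B_TNF_KO and at 1.06, 1.03 and 0.89 in TB_TNF_KO. The lowest B_TNF_KO array was still above all TB_TNF_KO arrays. The difference was -0.37 ± 0.08 (adjusted p = 0.099), with -0.40 in the sample channel and -0.17 in the reference channel, both without overlap. Il1b, the pyrogenic IL-1 ligand, stood at 0.32, 0.29 and 0.38 against 0.12, 0.08 and 0.03, a difference of -0.27 ± 0.05 (adjusted p = 0.078). Its probe was dim, with net sample intensities of 26.1 to 65.6. Within the pairs of equal replicate number 1, 2 and 3, Il18 differed by -0.40, -0.53 and -0.51, Il7 by -0.48, -0.39 and -0.39, and Il15 by -0.36, -0.19 and -0.49.

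**Figure D2:**
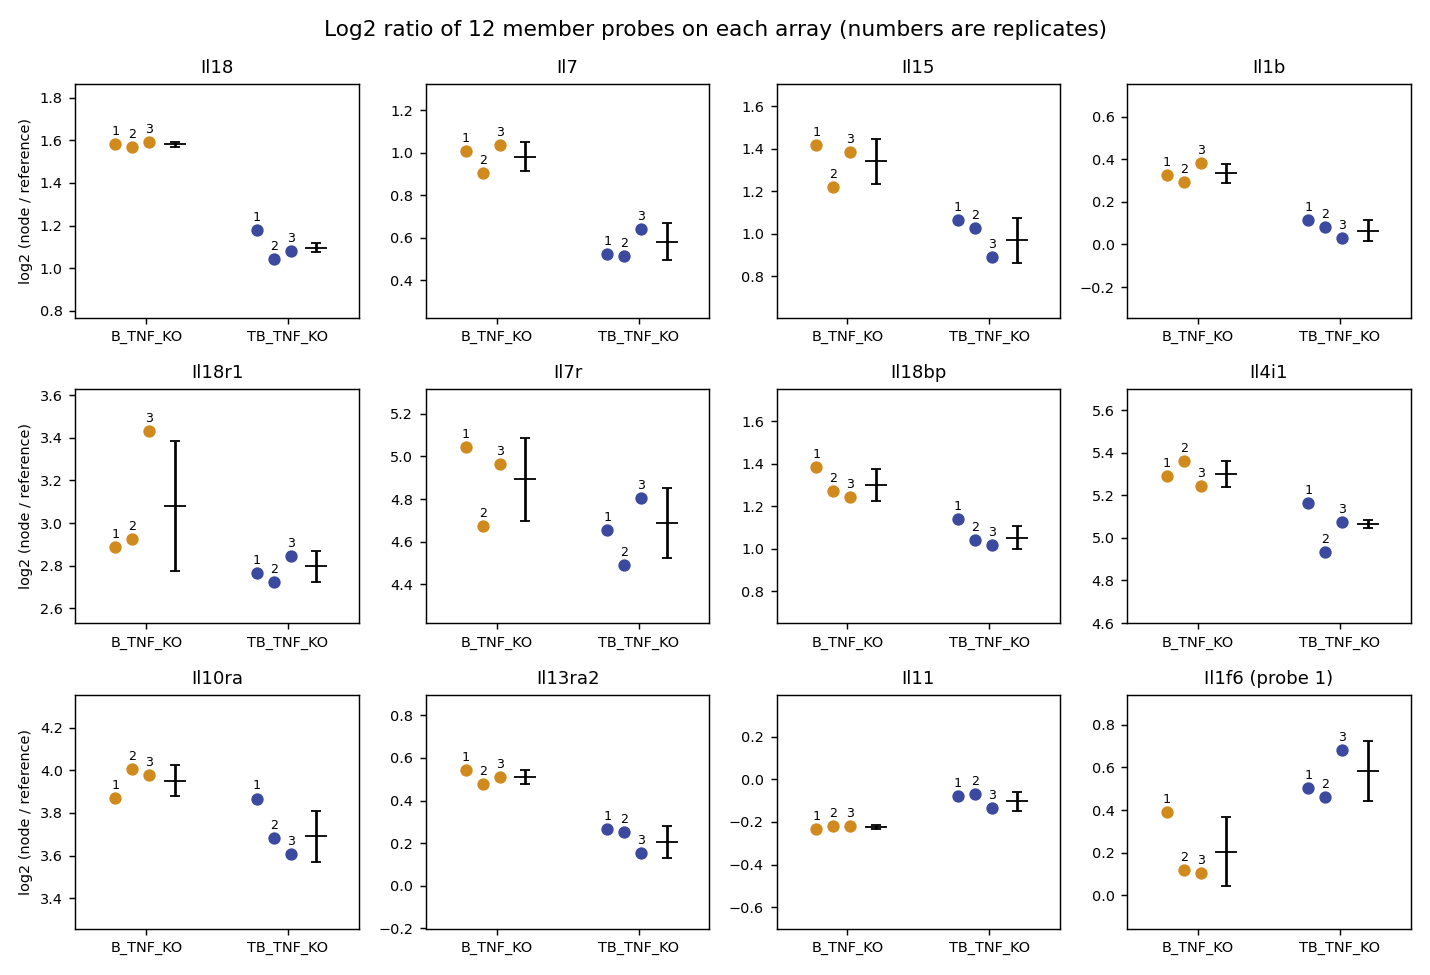
Log2 ratio of node over reference for 12 member probes on every array, on vertical axes of equal span, each centred on its own values. Replicate numbers stand beside the points, with the mean and SD of each group. For B_TNF_KO n = 3, and for TB_TNF_KO n = 2, where replicates 1 and 2 were averaged. Il18, Il7, Il15 and Il1b were lower on all TB_TNF_KO arrays, whereas the arrays of the groups overlapped for Il7r.

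Whether these ligands passed the test differed between fits. Il7, Il15 and Il1b passed only in fits that counted the 6 arrays separately. Il18 also passed with array weights and in the sample channel alone, both with TB_TNF_KO replicates 1 and 2 averaged. With all 6 arrays counted separately, 5 member probes were called lower, with a background of 4.55%, and 0 higher, with a background of 1.46%. At an unadjusted p of 0.05, 4 were higher, with a background of 7.17%. The 5 were Il18 (adjusted p = 0.008), Il7 (0.012), Il13ra2 (0.017), Il1b (0.021) and Il15 (0.033). If replicates 1 and 2 of TB_TNF_KO hold 1 RNA, this fit counts it more than once and its p-values are too small. A fit with the replicate number as a block also counts TB_TNF_KO replicates 1 and 2 separately, and takes the labels' numbers as pairs. With that block over the 6 arrays, 7 were called lower, with a background of 6.26%. These were the same 5, with adjusted p of 0.012 for Il18, 0.013 for Il7, 0.024 for Il13ra2, 0.035 for Il1b and 0.036 for Il15, together with Il18bp (0.026) and Il5ra (0.045), the latter chosen for naming after its values were seen. With the block and a GC correction, 6 were called lower (background 4.93%), and with the 6 arrays and a GC correction, chosen after seeing the data, the count was 5 (background 3.73%). Array weights called 1, Il18 (background 0.779%). In the sample channel of the 6 arrays, also chosen after seeing the data, 6 were called lower (background 4.21%) and 2 higher (background 3.59%). These were Il18, Il7, Il15, Il1b, Il13ra1 and Il4i1 in the lower direction and Il11 and Il1f6 probe 1 in the higher.

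In the other direction, 4 of 39 ligand probes were higher on every TB_TNF_KO array (10.3%, with a background of 10.6%), and none passed the test. Il1f6, an IL-36 cytokine, read 0.39, 0.12 and 0.10 against 0.50, 0.46 and 0.68 with its first probe, a difference of 0.38 ± 0.11 (adjusted p = 0.17). Its second probe differed by -0.01 ± 0.05, with overlapping arrays. The probes of Il4, the cytokine of type 2 responses, also had differences of opposite sign. Probe 1 read 0.05, 0.05 and 0.06 against 0.13, 0.19 and 0.22, and probe 2 read 1.21, 0.75 and 0.99 against 0.81, 0.62 and 0.82. The Il4 differences were 0.13 ± 0.04 and -0.22 ± 0.13, so the probes did not settle a direction for the gene. Probe 2 gave -0.11 without B_TNF_KO replicate 1 and -0.34 without B_TNF_KO replicate 2. Il17c probe 1, for an epithelial IL-17 cytokine, differed by 0.14 ± 0.06. Its sample channel differed by -0.02, with overlap, and its reference channel by -0.19, without overlap, and its second probe gave 0.02 with overlapping arrays.

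Il11, a gp130 cytokine, read -0.24, -0.22 and -0.22 against -0.08, -0.07 and -0.13, a difference of 0.12 ± 0.04 (adjusted p = 0.25). Its sample channel differed by 0.50 and its reference channel by 0.39, both without overlap. Both probes of Il12a, the p35 chain of IL-12, had overlapping arrays, with differences of -0.07 and 0.03, the latter between -0.22 and 0.15 as replicates were left out.

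The brightest ligand probes included cytokines whose arrays did not separate by group. Il16, a chemoattractant for CD4+ cells stored as a precursor in lymphocytes, stood at 3.85, 4.07 and 4.04 against 4.02, 3.99 and 3.94, a difference of -0.02 ± 0.08 (95% interval -0.21 to 0.17). Il33, an alarmin kept in the nuclei of stromal cells, stood at 1.17, 1.40 and 1.49 against 1.37, 1.29 and 1.26, a difference of -0.06 ± 0.10 (95% interval -0.29 to 0.18). For both, the groups' arrays lay among each other, and leaving out 1 replicate could turn the sign, from -0.09 to 0.03 for Il16 and from -0.15 to 0.01 for Il33.

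Among the receptors, Il7r, the IL-7 receptor alpha chain of T cells, stood at 5.04, 4.67 and 4.96 in B_TNF_KO and at 4.65, 4.49 and 4.81 in TB_TNF_KO. The arrays overlapped, since TB_TNF_KO replicate 3 exceeded B_TNF_KO replicate 2. The difference was -0.20 ± 0.13 (95% interval -0.51 to 0.10, adjusted p = 0.50), and leaving out 1 replicate at a time gave -0.32 to -0.13. The interval holds both no difference and one as large as that of its ligand Il7. Il2rb, the beta chain shared by IL-2 and IL-15, read 3.21, 3.34 and 3.30 against 3.27, 2.91 and 3.19, a difference of -0.14 ± 0.06. It was -0.05 without TB_TNF_KO replicate 2 and -0.23 without TB_TNF_KO replicate 1. In the sample channel alone it was 0.19, with TB_TNF_KO higher on every array. Il15ra, which presents IL-15 to neighbouring cells, differed by 0.11 ± 0.06.

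For the IL-1 and IL-18 receptors, Il18r1, the IL-18 binding chain, read 2.89, 2.92 and 3.43 against 2.77, 2.72 and 2.85. The highest value, B_TNF_KO replicate 3, stood apart from its group. The difference was -0.29 ± 0.17 (adjusted p = 0.48), and -0.11 without that replicate. Il1r2, the decoy receptor of IL-1, read 1.85, 1.43 and 1.61 against 1.37, 1.27 and 1.37, a difference of -0.28 ± 0.12, and -0.17 without B_TNF_KO replicate 1. Its sample channel differed by -0.13, with overlap, and its reference channel by 0.16. Il1r1, the signalling receptor, differed by -0.11 ± 0.06, with overlapping arrays, and by -0.18 without TB_TNF_KO replicate 3. Il18rap, the accessory chain of the IL-18 receptor, was dim and differed by -0.04 ± 0.05.

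Il13ra2, a decoy receptor for IL-13, read 0.54, 0.48 and 0.51 against 0.27, 0.25 and 0.15, a difference of -0.30 ± 0.05 (adjusted p = 0.066). In the sample channel the arrays overlapped, with a difference of -0.07. In the reference channel, which held the same cell line RNA by label on every array, TB_TNF_KO arrays were higher by 0.21 without overlap. Il13ra1, the signalling chain, read 0.13, 0.16 and 0.22 against 0.09, 0.03 and -0.06, a difference of -0.17 ± 0.06, and -0.11 without TB_TNF_KO replicate 3. It was also lower on every TB_TNF_KO array in the sample channel, by -0.29, and in the reference channel, by -0.18.

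Il10ra, the ligand-binding chain for the anti-inflammatory IL-10, read 3.87, 4.01 and 3.98 against 3.87, 3.68 and 3.61. Replicate 1 of both groups gave the same value to 2 decimals. The difference was -0.26 ± 0.07 (adjusted p = 0.16), but 0.03 in the sample channel. Il23r, the receptor of the cytokine that maintains IL-17-producing cells, read 0.45, 0.44 and 0.53 against 0.22, 0.38 and 0.23. Its difference was -0.21 ± 0.05 (adjusted p = 0.13), with -0.06 in the sample channel. Il17rd and Il12rb2 differed by -0.11 ± 0.04 and -0.10 ± 0.05, and their sample channels by -0.05 and -0.01. Probe 2 of Il31ra was the only receptor probe higher without overlap, by 0.05 ± 0.04. The remaining bright receptors, Il27ra and Il11ra1, had overlapping arrays and differences of -0.04 ± 0.07 and -0.11 ± 0.09, which leaving out 1 replicate moved to between -0.14 and -0.02 and between -0.19 and -0.06.

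Il18bp and Il4i1 were lower on every TB_TNF_KO array. Il18bp, a secreted protein that neutralises IL-18, read 1.39, 1.27 and 1.24 against 1.14, 1.04 and 1.02, a difference of -0.25 ± 0.06 (adjusted p = 0.12). Its sample channel differed by -0.08, with overlap. Il4i1, a secreted amino acid oxidase of antigen-presenting and B cells, read 5.29, 5.36 and 5.24 against 5.17, 4.93 and 5.08, a difference of -0.24 ± 0.05 (adjusted p = 0.10). Its sample and reference channels differed by -0.36 and -0.30, both without overlap. Il1rn and Il1f5, which block the IL-1 and IL-36 receptors, had differences of 0.02 to 0.04 over 3 probes.

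The other 44 member probes differed by -0.20 to 0.24, with 18 below 0 and a smallest adjusted p of 0.43. One of them, Il17rb, a receptor for IL-25, was picked out after its values were seen: TB_TNF_KO replicate 2 read 1.94 where replicate 1 read -0.02, with net sample intensities of 330.7 and 55.2. These arrays were the pair counted as 1 sample.

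The sample channel taken without the reference gave a partly different set. There, 12 member probes were lower without overlap, with a background of 17.5%, and 4 higher, with a background of 15.1%. In the cell line channel, 19 were lower (background 19.4%) and 7 higher (background 11.5%). Il7, Il15, Il18, Il1b, Il18r1, Il13ra1, Il22ra1 and Il4i1 were lower in the log ratio and in the sample channel, 8 probes with a background of 10.2%. Il11 and Il1f6 probe 1 were higher in both, with a background of 5.28%. The channel values were scaled by quantiles and the ratios by loess, so channel differences do not add up to those of the ratio.

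**Figure D3:**
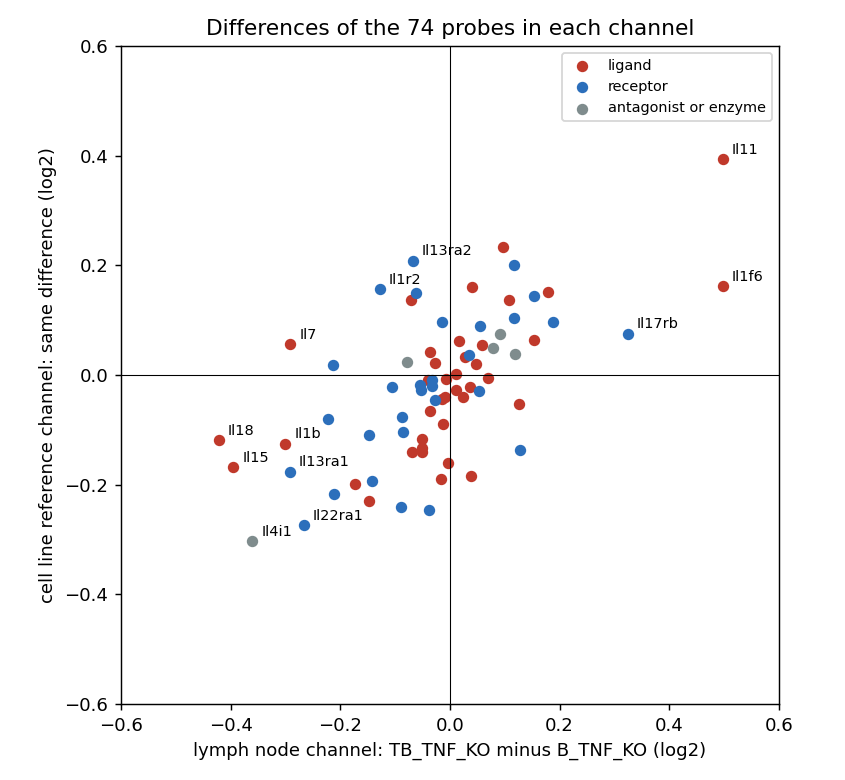
Differences between TB_TNF_KO and B_TNF_KO in the lymph node channel (horizontal, log2) and in the cell line reference channel (vertical, log2) for the 74 probes, coloured by role. Il18 and Il15 lie far left with smaller reference differences, Il7 far left with a reference difference of 0.06, and Il13ra2 near 0 on the horizontal axis with 0.21 on the vertical axis.

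Compared with the cell line pool, 13 of 74 member probes were above a log2 ratio of 1 on all 6 arrays, with a background of 3.83%. These were Il4i1, Il7r, Il16, Il10ra, Il2rb, Il27ra, Il18r1, Il15ra, Il12a probe 2, Il1r2, Il18, Il18bp and Il33, which include receptors typical of lymphocytes. Both Il6 probes and Il17rc were below -1 on all 6, with a background of 3.47%. Il6, the acute phase cytokine, read -1.68 to -1.46 with probe 1 and -1.94 to -1.76 with probe 2, and Il17rc, an IL-17 receptor chain, -1.87 to -1.56. Probes in these lists that the naming rule does not cover were named after their values were seen, and without a dye swap a dye effect is part of each ratio.

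By GC content, the 37 member probes with up to 40% GC held 7 that were lower without overlap, 18.9%, where all probes of that range gave 26.3%. The 37 with more held 8, 21.6%, where all probes gave 11.2%. Over the whole array, the share lower at an unadjusted p of 0.05 went from 23.1% at up to 35% GC to 2.22% above 55%. After a correction for probe GC, Il18 differed by -0.45, Il7 by -0.39 and Il15 by -0.36, and 12 member probes were lower at an unadjusted p of 0.05, with a background of 10%.

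**Figure D4:**
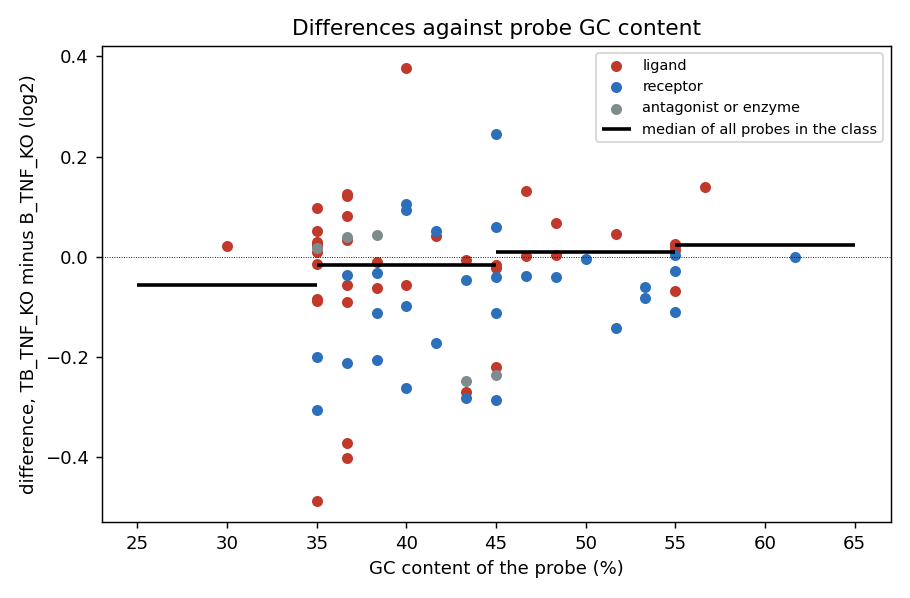
Difference between TB_TNF_KO and B_TNF_KO (log2, vertical) against the GC content of each of the 74 probes (%, horizontal), coloured by role, with black lines for the median of all probes in each GC class. The class medians go from -0.06 at up to 35% GC to 0.02 above 55%, and Il18, Il7 and Il15 lie far below the lines at 35% to 36.7%.

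The signalling genes downstream of these receptors held no call. Each gene of these lists and of the marker lists was read by its brightest probe alone. Beside the counts below, 11.1% of all probes were lower and 5.04% higher at an unadjusted p of 0.05. Of 22 measured JAK-STAT genes of 25 listed, 0 passed the test and 4 were lower at an unadjusted p of 0.05, with a list median of -0.02. They were the inhibitor Socs3 (-0.20), the phosphatase Ptpn2 (-0.21), the kinase Tyk2 (-0.17) and Stat4, which acts after IL-12 (-0.23). Of 16 of 20 genes for IL-1 and IL-18 processing and signalling, 0 passed and 3 were lower at that p: Casp1, the protease that matures IL-1β and IL-18 (-0.25), Casp4 (-0.29) and the inhibitor Irak3 (-0.20). The list median was -0.09, and 6 of its 16 genes were lower without overlap, where 17% of all probes were. Casp1 read 1.44, 1.33 and 1.52 against 1.19, 1.09 and 1.21.

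Of 20 of 22 partner cytokines and receptors with other names, 0 passed the test, 4 were lower and 1 higher at an unadjusted p of 0.05, where all probes gave 11.1% and 5.04%, with a median of -0.04. Kitl, stem cell factor, read -1.16, -1.09 and -1.13 against -1.43, -1.42 and -1.48, a difference of -0.32 (adjusted p = 0.056). Lif, a gp130 cytokine, differed by 0.26. Of 9 of 11 lineage factors, 0 passed, 2 were lower and 1 higher at that p, with a median of -0.13. Tbx21, the factor of type 1 T cells, differed by -0.39, but by 0.01 in the sample channel and 0.30 in the reference channel. Bcl6, the factor of follicular helper T and germinal centre B cells, differed by -0.23, and Gata3, of type 2 cells, by 0.17.

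Bulk nodes cannot tell fewer cells of a type from less RNA per cell. Summed sample intensities of the 10 T cell markers measured of 12 (47530 to 52152 in B_TNF_KO, 49796 to 52943 in TB_TNF_KO), and of the B cell, fibroblastic reticular, macrophage, dendritic, NK and blood endothelium lists, overlapped between the groups. In the log ratio, 3 of 8 B cell genes were lower without overlap, and 0 higher, where all probes gave 17% and 10.6%. They were Blk (-0.51), Cd79a (-0.42) and Pax5 (-0.08), with a list median of -0.08, and 0.06 in the sample channel. Of 8 macrophage genes, 2 were lower without overlap, Adgre1 (-0.41) and Siglec1 (-0.28), and 0 higher. That list's median was -0.07, and -0.18 in the sample channel. None of these genes was called. Within the dendritic cell list, 5 of 8 genes were lower without overlap in the log ratio, where 17% of all probes were, with 0 called. Among them were Ccl22 (-0.68), Clec10a (-0.61) and Fscn1 (-0.41), whereas Clec9a and Xcr1 each differed by 0.08 with overlapping arrays. The list median was -0.18 in the log ratio and 0.01 in the sample channel. Of 7 blood endothelium markers, 3 were lower and 1 higher without overlap, where all probes gave 17% and 10.6%, with 0 called. Their median was -0.28 in the log ratio and -0.15 in the sample channel. The sum over 6 of 7 lymphatic endothelium markers was lower in TB_TNF_KO without overlap (5584 to 6440 against 4614 to 5310). In the log ratio, 3 of the 6 were lower without overlap, where 17% of all probes were. Their median was -0.26, and -0.15 in the sample channel. Prox1, Reln and Pdpn had overlapping arrays, and Prox1 differed by 0.21 in the sample channel. Lyve1, a hyaluronan receptor, fell by 1.22 on the log2 scale (adjusted p = 0.009). In the channels taken alone, Lyve1 differed by -0.41 in the node and by 0.54 in the cell line reference. The sum over 7 neutrophil markers was higher without overlap (2139 to 2868 against 3079 to 3498), with none of its genes called. The part of these marker lists in the interleukin values was not tested. Of 18 exocrine pancreas markers, 13 were measured, and their sum was 109594 and 300668 in B_TNF_KO replicates 1 and 2 and 350630 and 356222 in TB_TNF_KO, but 4046 and 4168 in replicate 3 of each group. Adipocyte marker sums were 49109 and 45131 in TB_TNF_KO replicates 1 and 2 and 73057 to 79007 elsewhere. In the replicate 3 pair, with the low pancreas sums, Il18 differed by -0.51, Il7 by -0.39 and Il15 by -0.49. That pair is 1 array per group, and the part of pancreas or fat tissue in the interleukin values was not tested.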

How the data were processed

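RNA of 6 lymph node pools was hybridised against 1 reference on two-colour Agilent arrays. Per the file headers, the authors extracted spots with Feature Extraction A.7.5.1; the deposited scanner files give intensity and local background intensity per channel, and a log10 ratio. The deposited series table holds log10 values (column medians 2.98 to 2.99) that followed the processed sample signal (r = 0.993 to 0.996 across probes); its scaling and background step are unknown. Probe accessions were matched to RefSeq (GRCm38.p6), which gave 15294 probes a symbol.

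Intensities were corrected with normexp (offset 50) and loess within arrays in limma 3.58.1 (R 4.3.3). Probes of a gene were not merged; a probe stayed in if the software placed its node signal above background on 3 or more arrays and no value was an outlier, which left 40584 of 41006 and all 74 members; 73 were above background on all 6 arrays, 18 had a median net intensity under 50, and 0 were saturated. Il20 did not exceed the 95th percentile of the 314 negative controls on at least 3 arrays. Groups were compared with limma's lmFit and eBayes, Benjamini-Hochberg adjusted over all probes. The number of arrays limits the precision, and only the labels say that the pools were separate mice. Deviations from the group means correlated at 0.13, 0.53 and 0.62 between pools of equal replicate number 1, 2 and 3. B_TNF_KO replicate 2 with TB_TNF_KO replicate 1 gave 0.43, and B_TNF_KO replicate 1 with TB_TNF_KO replicate 2 gave 0.09. These values set replicate 3 apart but do not settle how replicates 1 and 2 pair. The block took the labels' numbers as pairs and was fitted over 6 arrays. Channels were also tested alone after quantile scaling; marker sums use these sample intensities.

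The naming rule took Il7, Il18 and Il7r, up to 12 further probes per direction with the largest difference among those without overlap, the 6 ligand and 6 receptor probes brightest in the sample channel, and members whose probes differed in direction. From each signalling list it took up to 4 genes by unadjusted p. Signalling and marker lists held 1 probe per gene, the brightest in the sample channel, whereas the background shares cover all probes. Members, lists and the averaging of TB_TNF_KO replicates 1 and 2 were chosen with earlier results of these data known. The fit was run on simulated data with independent noise on all 6 arrays. In the real data TB_TNF_KO replicates 1 and 2 stood close, so the simulation does not cover that feature. Alternatives covered the background, normalisation, filters, channels, GC content, spread model, block, sex label and each replicate left out. Figures used matplotlib 3.10.9 in Python 3.11.15. No genome was used, so probe positions within transcripts are not given.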

Additional observations from a re-analysis of the deposited data

How the results depend on the processing

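Member probes called lower numbered 0 in the fit reported first, 5 with the 6 arrays counted separately and 1 with the sample channel alone. Array weights also gave 1 (both times Il18), the replicate block 7, and the replicate block with GC correction 6. Leaving out each replicate but TB_TNF_KO replicate 3 gave 0 to 0. Chosen after seeing the data, the 6 arrays with GC correction gave 5, and the sample channel of 6 arrays gave 6 lower and 2 higher, where the first fit had 0 higher. Over all probes, where the first fit called 6 lower and 0 higher, the counts lower and higher were 1845 and 594 for the 6 arrays, 302 and 261 for the sample channel, 411 and 151 with a trended robust spread, 316 and 102 with array weights, 2541 and 747 with the replicate block, 2002 and 704 with the replicate block and GC correction, 1513 and 569 for the 6 arrays with GC correction, and 1708 and 1455 for the sample channel of 6 arrays. Fewer were called lower without background subtraction (0), in the reference channel (0), in the series table (0) and with the deposited log ratio (1). The same held with the mean of a gene's probes (2), at offset 16 (3) and with the pools labelled male alone (3). That last fit left out TB_TNF_KO replicate 2 alone, so it repeats the fit without that replicate. It kept TB_TNF_KO replicate 1, with its Eif2s3y ratio of -2.81, and the part of sex was not tested. Leaving out saturated probes gave 1 higher. Without each replicate in turn, but for TB_TNF_KO replicate 3, 0 to 5 were lower, with 0 without B_TNF_KO replicate 2, and 0 to 0 higher. Calls are not given without TB_TNF_KO replicate 3, since that fit left 1 sample in the group. The fits with the sample channel, the trended robust spread and array weights kept the samples of the first fit. The cause of the changed counts was not tested.

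Over all alternatives, Il18 differed by -0.52 to -0.42 and passed in 7 of 27, Il7 by -0.46 to -0.20 (5 of 27), Il15 by -0.43 to -0.30 (5 of 27) and Il1b by -0.44 to -0.06 (5 of 27). Il7r differed by -0.35 to -0.00436 and passed in 0 of 27. For the 30 named probes, 739 of 806 values kept direction and call, 32 newly passed, and 35 changed sign without being called. Dim probes, such as those under a net intensity of 50, limit what could be measured.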
